A study of Mus musculus with 10 samples.

Results

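The core G1 cell cycle switch was examined in tumour-associated macrophages through 10 genes. These encode the D-type cyclins (Ccnd1, Ccnd2, Ccnd3), their kinases (Cdk4, Cdk6), 4 inhibitors of cyclin-dependent kinases (Cdkn1a, Cdkn1b, Cdkn2a, Cdkn2c) and the retinoblastoma protein (Rb1). The genes were chosen by name, and the group was chosen because Ccnd1 was lower in treated samples, so the values of Ccnd1 are given as a description with no test. The members were listed at 12 of the 46957 loci in the tables, since Rb1 was split over 3 loci. Of these, 10 loci passed the filter on low counts, and they gave 9 of the 10 genes a tested main locus. Cdkn2a did not pass.

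D-type cyclins are made in response to growth signals and activate CDK4 and CDK6. The active kinases phosphorylate RB, which then releases E2F transcription factors and lets the genes of DNA synthesis be expressed. INK4 proteins (encoded by Cdkn2a and Cdkn2c) bind CDK4 and CDK6 directly, whereas p21 and p27 (encoded by Cdkn1a and Cdkn1b) bind cyclin-CDK complexes. In macrophages, CSF1 is the classical signal that induces D-type cyclins, and tumour macrophages can proliferate locally.

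The cells came from tumours that formed in BALB/cJ mice after 1e+05 cells of 4T1, a mouse mammary carcinoma line, had been placed in the mammary fat pad. Mice received PBS vehicle or JHU083, a prodrug of the glutamine antagonist 6-diazo-5-oxo-L-norleucine, at 1 mg/kg from day 7 to day 13, and cells were sorted on day 14, with 5 samples per group. The sort took CD45+ 7AAD- CD11b+ F4/80+ cells that were CD8-, Ly6C- and Ly6G-. The labels give no mouse genotype beyond the strain and do not say whether a sample was 1 mouse or a pool, so p-values measure the spread between these samples. Libraries held 11147870 to 14575932 fragments in vehicle and 13638381 to 15740701 in JHU083, and 3 fragments corresponded to 0.191 to 0.269 CPM of these unadjusted totals. All other CPM values are fragment counts scaled to library totals adjusted by TMM. Adgre1, which encodes F4/80, was detected at 539 to 625 CPM in vehicle and 893 to 986 in JHU083, and Itgam, which encodes CD11b, at 639 to 761 and 640 to 759. The JHU083 replicate 3 library stood apart: its deviation from the group mean, for loci in the top quartile of transcript length minus those in the bottom quartile, was -0.49 on the log2 scale, against -0.17 to 0.26 in the other 9 libraries. Mitochondrial transcripts took 1.53 to 2.09% of fragments in vehicle and 2.14 to 2.44% in JHU083, and their part in the results was not tested. The ribosomal RNA locus Rn18s-rs5 was listed at 0 in vehicle replicates 2, 4 and 5 and JHU083 replicates 1 and 3, so values within these libraries and within the others are also given.

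Promoter windows are shown for the kinases so that the E-box words CACGTG in them can be read beside the levels. RefSeq windows of 300 bases (250 before and 50 after an annotated start site, build GRCm38.p6) were found for 7 of the 10 members. The following windows lie at chr10:127063285-127063584 for Cdk4 and chr5:3343643-3343942 for Cdk6, both on the plus strand, with each CACGTG in capitals.
Cdk4: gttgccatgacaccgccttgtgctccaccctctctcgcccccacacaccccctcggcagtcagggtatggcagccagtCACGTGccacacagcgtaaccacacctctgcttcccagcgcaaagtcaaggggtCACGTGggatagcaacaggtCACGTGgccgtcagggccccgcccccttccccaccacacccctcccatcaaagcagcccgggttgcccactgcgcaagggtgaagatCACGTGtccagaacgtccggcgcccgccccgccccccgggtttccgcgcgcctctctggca
Cdk6: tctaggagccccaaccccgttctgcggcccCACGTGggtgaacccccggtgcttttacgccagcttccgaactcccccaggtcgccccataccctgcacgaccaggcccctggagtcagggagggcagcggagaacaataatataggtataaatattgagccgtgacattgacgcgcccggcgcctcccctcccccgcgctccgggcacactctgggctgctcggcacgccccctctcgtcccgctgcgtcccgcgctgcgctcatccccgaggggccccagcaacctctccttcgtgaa
The Cdk4 window held 4 copies of CACGTG, which began 172, 118, 98 and 11 bases before the start site. The Cdk6 window held 1 copy, 220 bases before it, and 1 of the 2 Cdkn2c windows held 1 copy, 34 bases after its start site. The windows of Ccnd3, Cdkn1a, Cdkn1b and Cdkn2a held no copy. Among 32851 windows of this length, 7.15% held at least 1 copy and 8 windows, or 0.0244%, held 4 or more. The word reads the same on both strands. E2F words (TTTCCCGC, TTTCGCGC, TTTGCCGC and TTTGGCGC, both strands) were found in 2.27% of windows and, among members, in 1 of the 2 Cdkn2a windows. The word TTTGAA, part of the CHR element of late cell cycle genes, was in 17.9% of windows and in no window of a member. These are letter matches, and no binding was measured.

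Cyclin D1 had the largest difference among the members. Ccnd1 (locus XLOC_038346; chromosome 7, 144929931 to 144939925, minus strand, GENCODE M21 on GRCm38) was measured at 158, 178, 160, 140 and 134 CPM in vehicle replicates 1 to 5. In JHU083 replicates 1 to 5 its level was 63.0, 63.1, 56.1, 57.3 and 50.5 CPM. The groups did not overlap, and the lowest vehicle library was more than 70 CPM above the highest JHU083 library. The mean was 154 ± 17.2 CPM in vehicle and 58.0 ± 5.3 in JHU083 (SD, n = 5 each), a log2 fold change of -1.41 ± 0.09 (SE), or 2.66-fold lower. Of the loci tested, 2.62% had a lower fold change. Leaving out any 1 library kept the fold change between -1.46 and -1.36. The exons of Ccnd1 share 1100 bases with those of LTO1 on the other strand, listed in the tables as Oraov1, which was at a mean of 10.1 CPM in vehicle and 11.6 in JHU083. Whether strand was used in counting is not given in the sources used here. In bulk RNA, fewer cells of a type and less RNA per cell cannot be told apart.

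Transcripts of tumour epithelial cells were also lower in JHU083. The counts of markers called by edgeR in this paragraph stand beside 18.3% of all loci lower and 18.4% higher in JHU083 (25.1% and 12.5% with library size alone as the normalization). All 9 epithelial markers examined, which include Epcam, an epithelial adhesion molecule, and the keratins Krt8 and Krt18, fell in JHU083, with a median log2 fold change of -1.79 and no marker at 0 in every library. Their summed level was 416, 654, 575, 461 and 300.3 CPM in vehicle replicates 1 to 5, and 146, 182, 104, 220 and 134 CPM in JHU083 replicates 1 to 5. The groups did not overlap in this sum. Within vehicle, replicate 2 was highest and replicate 5 lowest for both Ccnd1 and the epithelial sum, whereas within JHU083 the lowest Ccnd1 was in replicate 5 and the lowest sum in replicate 3. Of 6 fibroblast markers 5 fell, with a summed level of 103 to 224 CPM in vehicle and 25.6 to 113 in JHU083. The count of fibroblast markers was 2 without JHU083 replicate 4 or vehicle replicate 2, and 3 without JHU083 replicate 5 or vehicle replicate 4. The summed level of 5 endothelial markers was 129.8 to 217 CPM in vehicle and 43.8 to 93.1 in JHU083, without overlap. Of the 4 tested endothelial markers Pecam1 fell (-1.52 ± 0.25), Tie1 rose (0.56 ± 0.13) and 2 were not called. Of 5 tested neutrophil markers S100a8 (-1.40 ± 0.26) and S100a9 (-2.18 ± 0.33) fell and Csf3r rose (0.53 ± 0.09), and their list summed to 91.8 to 102 CPM in vehicle and 94.0 to 145 in JHU083. The 6 T or NK cell markers did not pass the filter. Of 3 tested eosinophil markers 1 rose, and their list summed to 3.60 to 9.88 CPM in vehicle and 6.56 to 16.7 in JHU083. The 1 tested B cell marker rose, a call lost with library size alone, and the 3 tested dendritic cell markers were not called. Of 8 macrophage markers 4 rose and none fell. The sort gate on CD45, CD11b and F4/80 selects against epithelial, fibroblast and endothelial cells. Their transcripts were still present at the levels given above, and the purity of the sort was not tested. The part of these cells in the level of Ccnd1 was not tested.

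**Figure D1:**
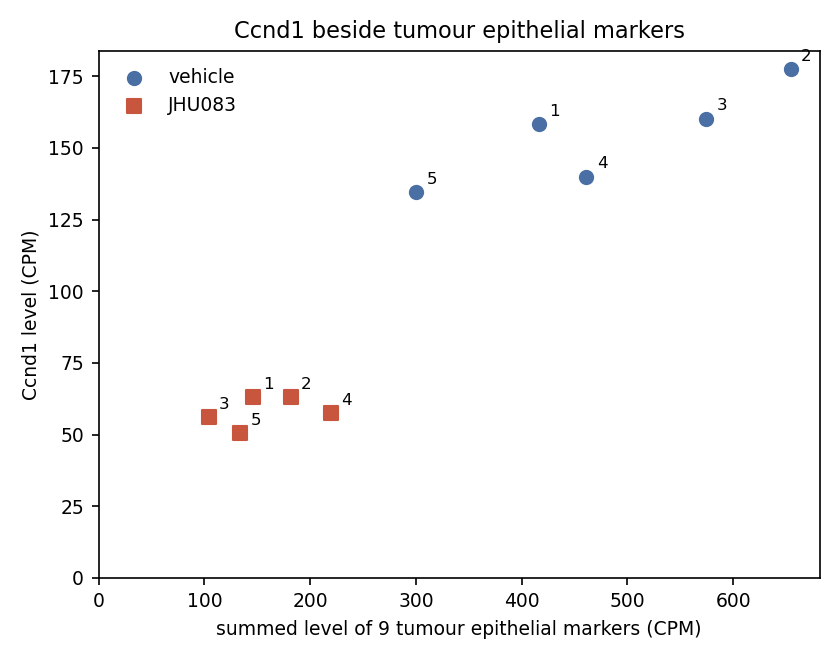
Level of Ccnd1 (vertical axis, CPM) against the summed level of 9 tumour epithelial markers (horizontal axis, CPM), 1 point per library with its replicate number; circles are vehicle and squares JHU083. Vehicle libraries lie at 300.3 to 654 CPM of epithelial markers and 134 to 178 CPM of Ccnd1, and JHU083 libraries at 104 to 220 and 50.5 to 63.1.

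The loci whose log2 CPM was most like that of Ccnd1 over the 10 libraries, among 8907 loci with an average log2 CPM of at least 3, were Eno3, Cyb5b, Fasn, Shcbp1 and Nek2. Eno3, which encodes the muscle-type enolase of glycolysis, had a Pearson r of 0.996 over the 10 libraries and 0.87 after the group means were subtracted. Fasn, the fatty acid synthase gene, had r of 0.987 and 0.71. Nek2, a mitotic kinase gene, had r of 0.984 and 0.72. Cyb5b, encoding a cytochrome b5 of the outer mitochondrial membrane, had 0.989 and 0.62, and Shcbp1 had 0.984 and 0.61. The first value of each pair was used to choose these genes and contains the difference between the groups. It also contains the deviations within the groups, so the second value is not free of that choice. Neither value is a test.

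Cyclin D3 fell and cyclin D2 was not called different. Ccnd3 (XLOC_015489; chromosome 17, 47505051 to 47599691, plus strand) was at 42.8, 38.9, 39.1, 40.2 and 42.5 CPM in vehicle and at 25.8, 28.3, 27.3, 24.7 and 25.3 CPM in JHU083. Every JHU083 library was below every vehicle library, and the spread within each group was narrow. The log2 fold change was -0.63 ± 0.07 (SE; edgeR quasi-likelihood test, adjusted p = 2.86e-05). In this comparison 36.7% of all loci tested passed the threshold of 0.05, with 18.3% lower and 18.4% higher in JHU083, and for 22.3% the groups did not overlap in CPM. With library size alone as the normalization 25.1% were lower and 12.5% higher. The exons of Ccnd3 share 361 bases with those of Bysl on the other strand, a gene of ribosome assembly that also fell (log2 fold change -0.44, edgeR adjusted p = 0.00297).

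Ccnd2 (XLOC_033491; chromosome 6, 127125162 to 127152193, minus strand) was at 60.6, 47.6, 33.9, 43.4 and 47.7 CPM in vehicle. In JHU083 it was at 86.3, 44.7, 47.5, 41.4 and 46.6 CPM. Replicate 1 of JHU083 was the highest of all 10 libraries and the other 4 lay inside the vehicle range. The log2 fold change was 0.19 ± 0.19 (SE; edgeR adjusted p = 0.458), and it was -0.05 without JHU083 replicate 1.

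The make-up of the D-type cyclin transcripts is given as a description: the shares, their sum and any ratio with Ccnd1 contain the fall of Ccnd1 that chose the group. Levels of different genes were compared per length, in the second deposited column, taken here as FPKM (fragments scaled to transcript length and library total). Ccnd1 made up 50.3, 54.5, 52.1, 48.3 and 46.7% of the summed FPKM of the D-type cyclins in vehicle, and 23.5, 34.6, 29.4, 34.8 and 31.3% in JHU083. The groups did not overlap. Ccnd3 held 34.2 ± 2.7% in vehicle and 37.4 ± 7.2% in JHU083 (SD, n = 5 each), and Ccnd2 held 15.4 ± 0.98% and 31.9 ± 11.8%. The share of Ccnd2 ranged from 21.2 to 49.2% in JHU083, where replicate 1 was highest, and was 14.0 to 16.5% in vehicle. The sum was 81.7 ± 5.2 FPKM in vehicle and 54.2 ± 11.4 FPKM in JHU083. The ratio of Ccnd1 to Ccnd3 was 1.48 ± 0.21 in vehicle and 0.828 ± 0.048 in JHU083.

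**Figure D2:**
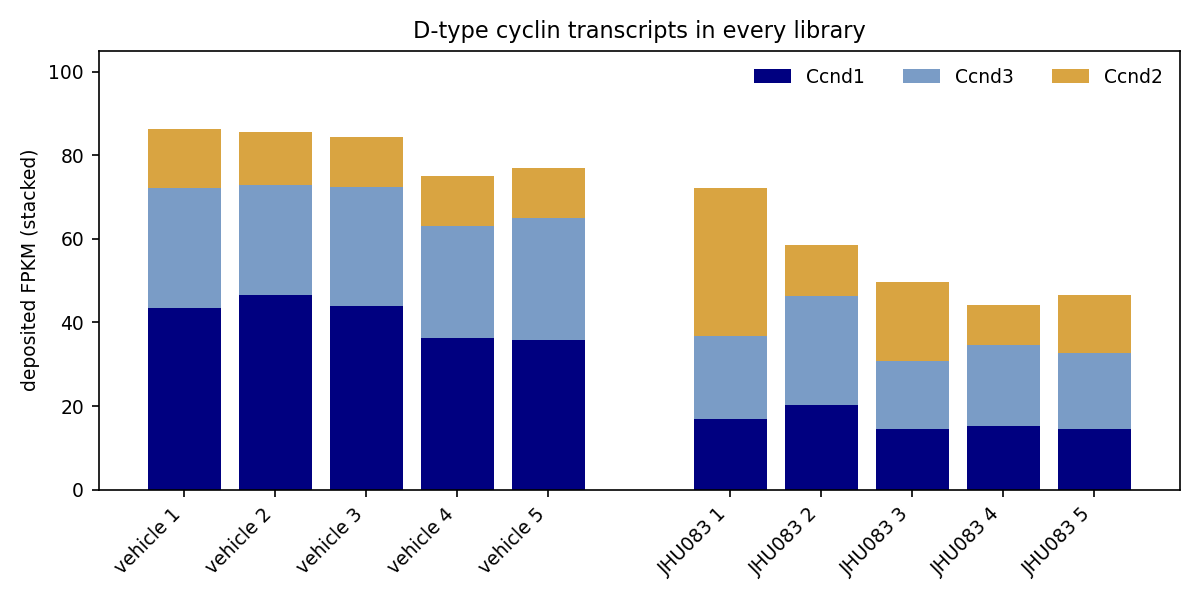
Deposited values, taken as FPKM, of Ccnd1, Ccnd3 and Ccnd2, stacked, in each of the 5 vehicle and 5 JHU083 libraries. The sum is 75.1 to 86.4 FPKM in vehicle and 44.1 to 72.1 in JHU083, and the Ccnd2 block is tallest in JHU083 replicate 1, at 35.5 FPKM.

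Both kinase partners of the D-type cyclins fell. Cdk6 (XLOC_027642; chromosome 5, 3341485 to 3531008, plus strand) was at 30.4, 35.1, 35.5, 31.3 and 31.9 CPM in vehicle and at 18.3, 24.9, 20.3, 24.8 and 25.7 CPM in JHU083. The groups did not overlap. Cdk6 had a log2 fold change of -0.53 ± 0.10 (SE; edgeR adjusted p = 0.00148). By FPKM the groups overlapped, at 7.11 to 13.9 in vehicle and 5.87 to 9.23 in JHU083, and the change was not called (-0.34, limma adjusted p = 0.18, on the log2 scale with a pseudocount of 0.1).

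Cdk4 (XLOC_004032; chromosome 10, 127063534 to 127067920, plus strand), whose window with 4 E-boxes is printed above, was at 191, 177, 181, 181 and 184 CPM in vehicle. In JHU083 it was at 143, 140, 181, 139 and 144 CPM. Replicate 3 of JHU083 lay inside the vehicle range and the other 4 lay below it. The log2 fold change was -0.29 ± 0.08 (SE; edgeR adjusted p = 0.0105), and -0.37 without JHU083 replicate 3. The transcript length implied by the tables was 0.845 kb for Cdk4, the shortest of the tested members, and JHU083 replicate 3 is the library whose levels leaned towards short transcripts. The part of this tilt in the Cdk4 level was not tested. By FPKM the call was lost (-0.25, limma adjusted p = 0.0557 with either pseudocount). Tspan31, which shares 641 exonic bases with Cdk4 on the other strand, was at a mean of 114 CPM in vehicle and 101 in JHU083 (log2 fold change -0.18, edgeR adjusted p = 0.127). The ratio of Cdk4 to Cdk6 in FPKM was 22.6 ± 5.8 in vehicle and 23.7 ± 4.9 in JHU083 (SD, n = 5 each), a difference within the spread of either group.

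The CDK inhibitors moved in different directions. Cdkn2c, which encodes the INK4 protein p18 (XLOC_026995; chromosome 4, 109660876 to 109667189, minus strand), was at 38.4, 41.8, 34.2, 33.9 and 35.3 CPM in vehicle and at 23.8, 21.9, 23.2, 18.0 and 18.5 CPM in JHU083. All 5 JHU083 libraries were below all 5 vehicle libraries. This was a log2 fold change of -0.80 ± 0.10 (SE; edgeR adjusted p = 5.25e-05), the lowest among the members after Ccnd1.

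Cdkn1b, which encodes p27 (XLOC_032172; chromosome 6, 134920401 to 134925513, plus strand), was at 58.2, 54.9, 63.0, 60.05 and 57.4 CPM in vehicle. In JHU083 it was at 67.9, 90.8, 64.6, 77.8 and 67.0 CPM. The groups did not overlap, but the lowest JHU083 library was within 2 CPM of the highest vehicle library. Its log2 fold change was 0.33 ± 0.10 (SE; edgeR adjusted p = 0.0156), and Cdkn1b was the only member called higher. With library size alone as the normalization the call was lost (0.25, edgeR adjusted p = 0.0647). The ratio of Cdkn1b to Cdkn2c in FPKM was 1.48 ± 0.17 in vehicle and 2.89 ± 0.54 in JHU083, with ranges of 1.20 to 1.63 and 2.21 to 3.47 that did not overlap. This ratio contains the changes of both genes given above and is a description.

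Cdkn1a, which encodes p21 and is a target of p53 (XLOC_015180; chromosome 17, 29090976 to 29100727, plus strand), was at 461, 452, 426, 450.2 and 489.9 CPM in vehicle and at 572, 398, 519, 515 and 443 CPM in JHU083. The JHU083 libraries lay on both sides of the vehicle range. Cdkn1a had a log2 fold change of 0.10 ± 0.09 (SE; edgeR adjusted p = 0.401). Cdkn2a, whose locus encodes both p16 and p19 ARF (XLOC_026831; chromosome 4, 89274471 to 89294653, minus strand), had 6, 7, 7, 3 and 5 fragments in vehicle and 7, 5, 1, 3 and 3 in JHU083. A difference in Cdkn2a was not detectable at this depth.

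Rb1 (chromosome 14, 73183673 to 73325822, minus strand) was tested at its main locus, XLOC_012374. It was at 32.5, 37.3, 43.8, 38.3 and 39.2 CPM in vehicle and at 48.3, 50.9, 35.0, 47.7 and 42.4 CPM in JHU083. Of the JHU083 libraries 3 lay above the vehicle range, and replicate 3 was the lowest of the group. The log2 fold change was 0.23 ± 0.11 (SE; edgeR adjusted p = 0.107). Without JHU083 replicate 3 it was 0.31 and passed the threshold (edgeR adjusted p = 0.0114), and the implied transcript length of Rb1 was 4.26 kb, the longest among the tested members. A smaller Rb1 locus, XLOC_012373, held 1 to 27 fragments per library and was not called (0.88 ± 0.45, edgeR adjusted p = 0.14), and XLOC_012376 held 0 to 2. In the annotation the exons of Rb1 also share 408 bases with Lpar6 and 488 with Rcbtb2 on the other strand, and Rcbtb2 rose (log2 fold change 0.89, edgeR adjusted p = 2.84e-06).

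**Figure D3:**
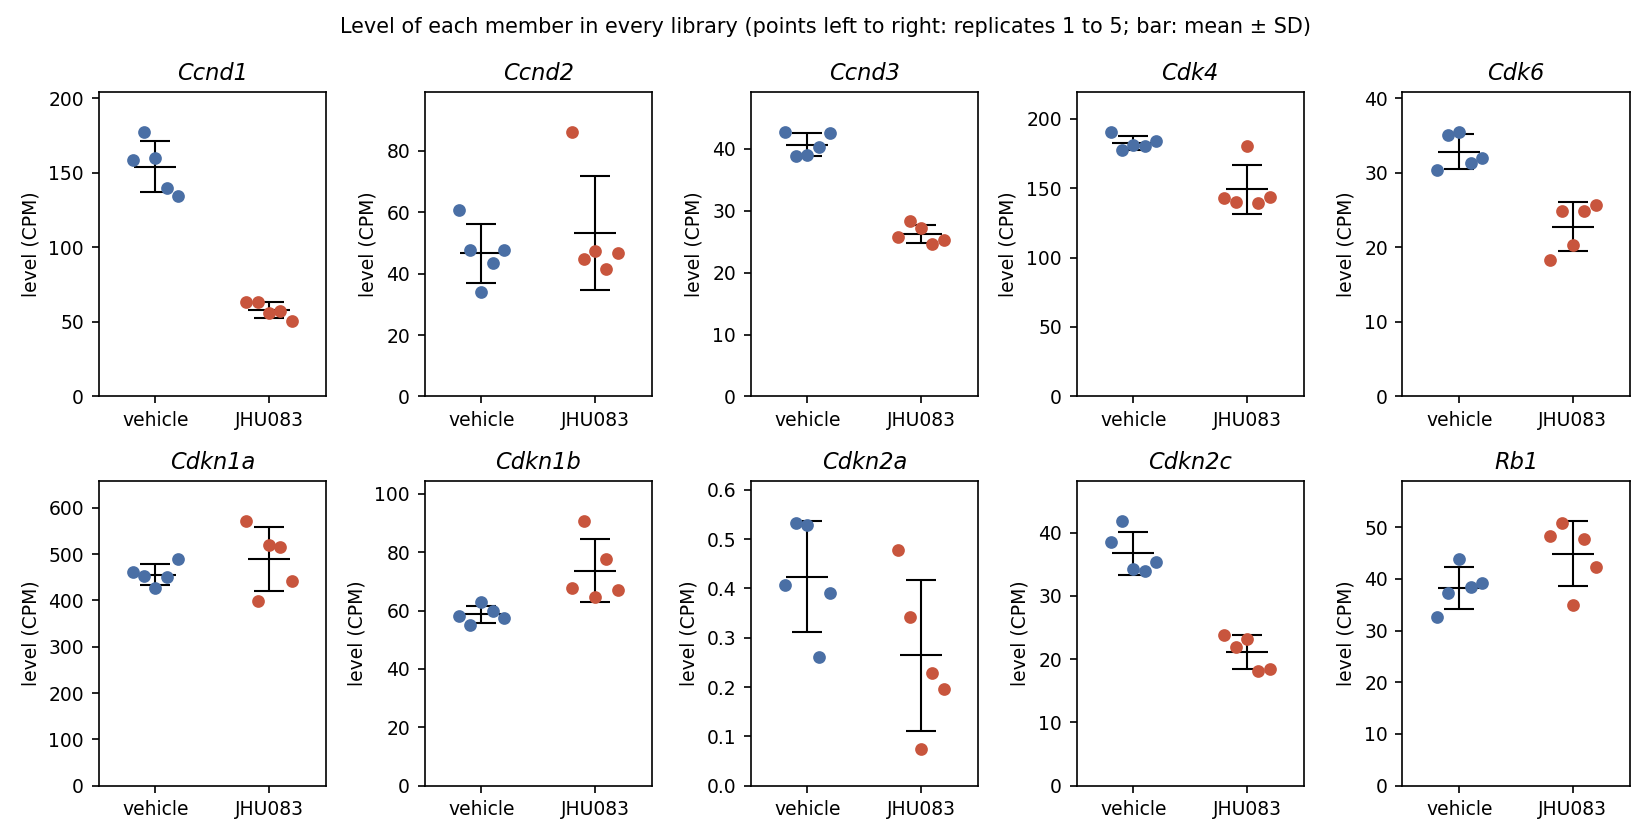
Level of each of the 10 genes in CPM (vertical axes from 0, each on its own scale) in 5 vehicle and 5 JHU083 libraries, with replicates 1 to 5 from left to right and bars for mean ± SD. The groups do not overlap for Ccnd1, Ccnd3, Cdk6, Cdkn1b and Cdkn2c, single libraries stand apart for Ccnd2 (JHU083 replicate 1) and Cdk4 (JHU083 replicate 3), and Cdkn2a lies below 1 CPM.

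Of the 8 tested members other than Ccnd1, 4 fell (Ccnd3, Cdk4, Cdk6 and Cdkn2c), where 18.3% of all loci fell. Cdkn1b alone rose, where 18.4% of all loci rose, and 3 were not called (Ccnd2, Cdkn1a and Rb1). With library size alone 4 members fell and 0 rose, beside 25.1% and 12.5% of all loci. By FPKM with either pseudocount 2 members fell and 1 rose. Of 12501 loci, 1901 were then lower and 1908 higher with a pseudocount of 0.1, and 1898 and 1922 with a pseudocount of 1. The groups did not overlap for 4 of the 8, where this held for 22.3% of all loci. The median log2 fold change of the 8 was -0.09, against 0.01 over all 12501 loci tested.

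Values within the libraries that listed Rn18s-rs5 at 0, and within the others, are given in that order. Ccnd1 had log2 fold changes of -1.34 and -1.49. Ccnd3 (-0.61 and -0.66), Cdk6 (-0.76 and -0.40) and Cdkn2c (-0.65 and -0.91) were called by edgeR within both sets. Cdk4 was at -0.16 (edgeR adjusted p = 0.499) and -0.41 (0.0211). Cdkn1b was at 0.21 (edgeR adjusted p = 0.302) and 0.36 (0.0873), and was called within neither. Ccnd2, at 0.53 and -0.11, differed in sign and was not called in either set.

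By abundance the members spanned a wide range. In vehicle the order by mean FPKM was Cdkn1a (257 ± 9.4), Cdk4 (214 ± 9.9), Ccnd1 (41.2 ± 4.9), Ccnd3 (27.9 ± 1.2), Cdkn1b (23.6 ± 0.87), Cdkn2c (16.0 ± 1.7), Ccnd2 (12.6 ± 1.0), Cdk6 (10.1 ± 2.7), Rb1 (9.24 ± 1.2) and Cdkn2a (0.584 ± 0.167; SD, n = 5). Neighbours in this order did not overlap in range, except that Cdk6 overlapped both Ccnd2 and Rb1. In JHU083 Cdkn1a (289 ± 35.9) and Cdk4 (181 ± 28.2) were again the most abundant, followed by Cdkn1b (28.8 ± 4.0), Ccnd3 (19.8 ± 3.7), Ccnd2 (18.0 ± 10.3) and Ccnd1 (16.3 ± 2.4). The range of Ccnd1 in JHU083, 14.5 to 20.3 FPKM, overlapped those of Ccnd3 and Ccnd2, and the Ccnd2 mean includes replicate 1 at 35.5 FPKM. Rb1 (10.2 ± 1.6), Cdkn2c (10.1 ± 1.1) and Cdk6 (7.82 ± 1.4) followed with overlapping ranges. The ratio of Cdkn1a to Cdkn1b was 10.9 ± 0.71 in vehicle and 10.2 ± 2.1 in JHU083, a difference within the spread.

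Of 8 later cyclins and CDKs, which act after the D-type cyclins, all 8 fell in JHU083, with a median log2 fold change of -1.16. The groups did not overlap in CPM for any of the 8, where this held for 22.3% of all loci. Ccnb2, a mitotic B-type cyclin, fell (38 to 49.7 CPM in vehicle, 13.9 to 19.1 in JHU083; log2 fold change -1.42 ± 0.10). Ccne1, the E-type cyclin of the G1 to S transition, changed by -1.32 ± 0.17, and Ccna2, the A-type cyclin of S phase, by -1.28 ± 0.11. These log2 fold changes (± SE) and those of the following lists were called by edgeR with adjusted p under 0.05 over all loci, where 18.3% of loci were lower and 18.4% higher. The tumour epithelial markers fell in the same libraries (9 of 9, median -1.79, summed level 300.3 to 654 CPM in vehicle and 104 to 220 in JHU083), and their part in the levels of these genes was not tested.

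Among 10 E2F and DP factors 7 fell, 1 rose and 2 were not called, with a median of -0.56. The atypical repressors E2f7 (-1.10 ± 0.20) and E2f8 (-0.67 ± 0.17) and the activator E2f2 (-0.88 ± 0.15) fell the most, and the dimer partner Tfdp2 rose (0.50 ± 0.13). By FPKM with either pseudocount 5 were lower and 0 higher. Of 12501 loci, 1901 and 1898 were lower by FPKM and 1908 and 1922 higher, with pseudocounts of 0.1 and 1. E2f7 was then at -0.82 and -0.38 (limma adjusted p = 0.0963 and 0.13, with pseudocounts of 0.1 and 1), and Tfdp2 lost its call (0.0672 and 0.0679). Of 17 tested RB-E2F target genes 14 fell and none rose, with a median of -0.92. Cdc6, which loads the replicative helicase, was at 10.2 to 15.2 CPM in vehicle and 4.84 to 5.12 in JHU083 (-1.27 ± 0.14). The helicase subunits Mcm6 (-1.19 ± 0.10) and Mcm5 (-1.18 ± 0.11) also fell. The 3 targets that did not pass, named after their values were seen, were Slbp (-0.13 ± 0.09), Pcna (-0.26 ± 0.10) and Mki67 (-0.18 ± 0.17). Without JHU083 replicate 3 the numbers that fell were 8 later cyclins and CDKs, 7 E2F and DP factors and 15 targets.

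Mki67, which encodes the proliferation marker Ki-67, was at 88.9, 85.2, 92.0, 92.5 and 81.1 CPM in vehicle and at 90.6, 106, 41.9, 73.4 and 77.3 in JHU083. Replicate 3 of JHU083 was the lowest of all libraries and the groups overlapped. The edgeR adjusted p was 0.448, and without JHU083 replicate 3 the log2 fold change was -0.02. The implied Mki67 transcript length was 10.2 kb. Pcna lay close to the threshold, with an edgeR adjusted p between 0.00591 and 0.135 when 1 library was left out. It passed without JHU083 replicate 3, vehicle replicate 3 or vehicle replicate 4, with library size alone, with DESeq2, with limma-voom, with DESeq2 size factors in edgeR, with the deposited scaled values rounded, and without Rn18s-rs5 and Gm42418.

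Other CDK inhibitors and RB relatives moved in both directions. Of 5 tested genes 3 fell, 1 rose and 1 was not called. Cdkn3, a phosphatase that acts on CDKs, fell by 1.60 ± 0.22 (SE) on the log2 scale, from 3.77 to 6.52 CPM in vehicle to 1.11 to 2.31 in JHU083. The INK4 gene Cdkn2d (-0.49 ± 0.12) and the RB relative Rbl1 (-0.32 ± 0.10) fell too. Rbl1 lost its call by FPKM (limma adjusted p = 0.0953 and 0.0973 with pseudocounts of 0.1 and 1). It also lost it without JHU083 replicate 4, JHU083 replicate 5 or vehicle replicate 1 (edgeR adjusted p = 0.0587, 0.0504 and 0.0508), which left 2 genes lower. Rbl2, which encodes p130, the RB relative of resting cells, rose by 0.54 ± 0.11 (SE), with JHU083 replicate 3 inside the vehicle range and the other 4 above it. Among 8 genes of the CDK-activating kinase, the CDC25 phosphatases and the WEE kinases, 5 fell, with Cdc25c at -1.16 ± 0.23, Pkmyt1 at -0.93 ± 0.15 and Wee1 at -0.61 ± 0.20. By FPKM with a pseudocount of 0.1, 3 of the 8 were called lower, beside 1901 of 12501 loci. The Wee1 call was lost without JHU083 replicate 1 or without any 1 of vehicle replicates 1, 2, 3 and 5 (edgeR adjusted p = 0.0505 to 0.0677), which left 4 genes lower. The CDK-activating kinase itself (Cdk7 0.03 ± 0.09, Ccnh 0.03 ± 0.09, Mnat1 0.07 ± 0.10; named after their values were seen) was not called.

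Among 10 tested ubiquitin ligases and adaptors that act on cyclins and CDK inhibitors, 4 fell, 1 rose and 5 were not called, beside 18.3% lower and 18.4% higher over all loci. Cks1b, the adaptor with which the ligase subunit SKP2 recognises p27, fell by 1.57 ± 0.13 (SE) on the log2 scale. Its level was 50.3, 41.0, 38.6, 42.8 and 43.3 CPM in vehicle and 16.0, 15.1, 17.4, 14.1 and 10.3 in JHU083, with no overlap. Skp2, named after its values were seen, was at -0.16 ± 0.11 and was not called. Cks2 (-0.48 ± 0.13) and the APC/C activator Fzr1 (-0.37 ± 0.09) fell, and Fbxo4, an F-box protein linked to cyclin D1 turnover, rose (0.72 ± 0.17). Fzr1 lost its call by FPKM (-0.26 and -0.25, limma adjusted p = 0.0715 and 0.0719, with pseudocounts of 0.1 and 1). This left 3 genes lower, beside 1901 and 1898 of 12501 loci.

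Genes upstream of the members were mixed. Of 14 tested growth-signal genes 7 rose, 2 fell and 5 were not called. Csf1r, the receptor for CSF1, rose by 0.51 ± 0.09 (SE), its ligand gene Csf1 by 0.52 ± 0.10 and Fos by 0.59 ± 0.09. Myc fell by 0.88 ± 0.14, from 42.9, 60.0, 62.5, 45.5 and 41.1 CPM in vehicle to 28.5, 28.9, 20.7, 30.4 and 28.2 in JHU083. The JHU083 replicate 3 library had the lowest Myc and the highest Cdk4 of its group. It was the library that stood apart by transcript length, and a link between Myc and Cdk4 was not tested. Fosl1, an AP-1 subunit, fell by 2.28 ± 0.34. With library size alone as the normalization 4 growth-signal genes rose, beside 12.5% of all loci (18.4% in the main fit).

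Of 12 factors that act upstream of CDK inhibitors 6 rose, 3 fell and 3 were not called. Cebpa, a myeloid differentiation factor, rose by 1.05 ± 0.08 (SE), with 372 to 416 CPM in vehicle and 745 to 939 in JHU083. Klf4 (1.45 ± 0.18) and Klf6 (0.51 ± 0.10), both linked to Cdkn1a transcription, also rose. Foxm1, the driver of mitotic genes, fell by 1.07 ± 0.15 at a locus that lists further genes, Trp53, which encodes p53, by 0.44 ± 0.08, and the chromatin repressor Ezh2 by 0.40 ± 0.08. Of 17 tested p53 targets 4 rose, among them Trp53inp1 (1.07 ± 0.16), Ccng1 (0.50 ± 0.09) and Zmat3 (0.45 ± 0.15), Perp fell (-1.32 ± 0.34) and 12 were not called. These 4 of 17 stand beside 18.4% of all loci called higher. The number of p53 targets that rose was 2 with library size alone, where 12.5% of all loci rose. It was also 2 without any 1 of JHU083 replicate 4, vehicle replicate 1 and vehicle replicate 4. Zmat3 lost its call in each of these settings and without JHU083 replicate 1 or 2, and by FPKM it was at 0.19 and 0.13 (limma adjusted p = 0.513 and 0.467). Ccng1 was at 68.8 to 86.7 CPM in vehicle and 99.5 to 122 in JHU083, while Cdkn1a, the best known gene of this group, overlapped between the groups as given above.

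**Figure D4:**
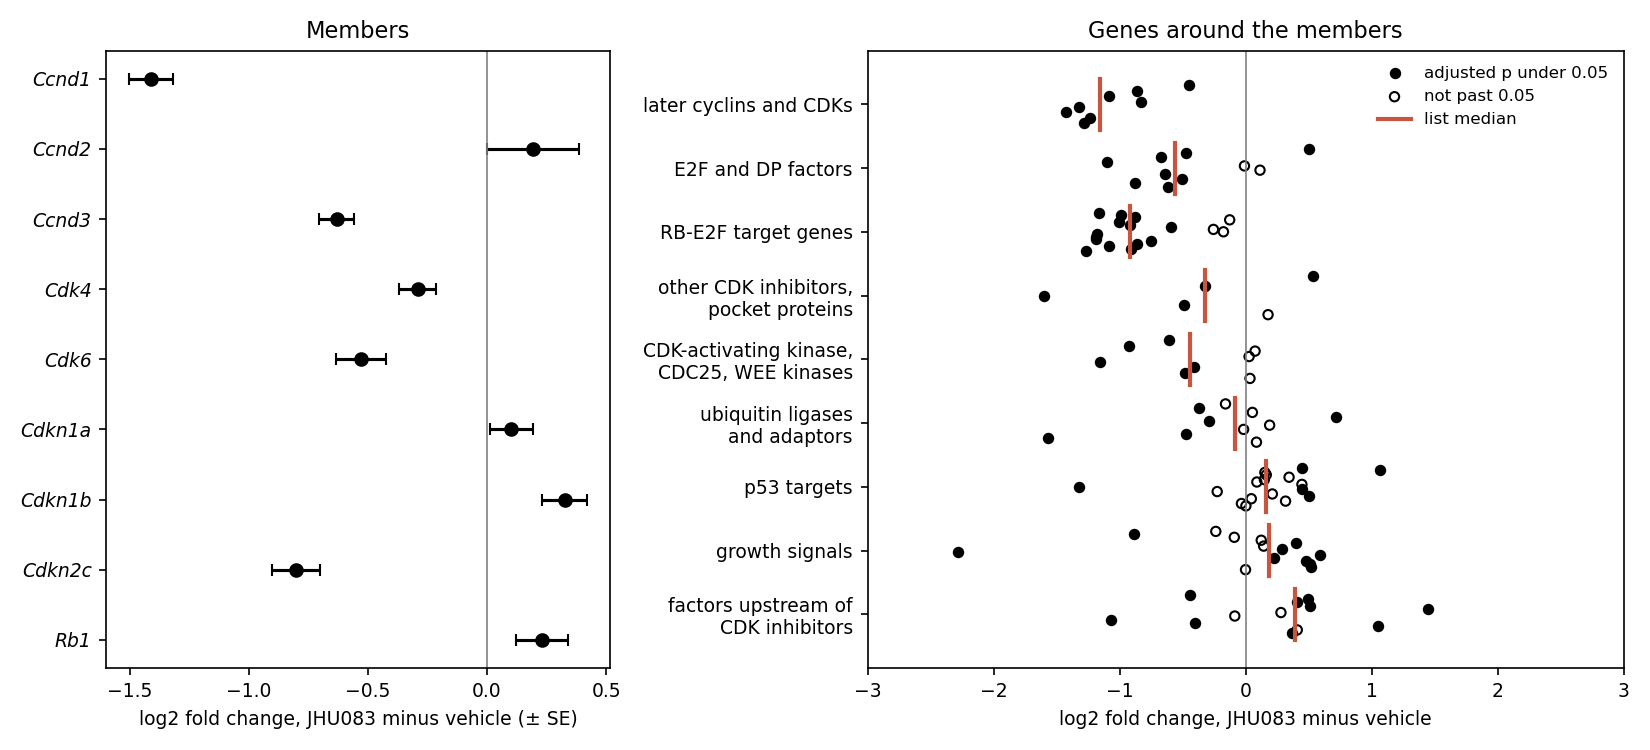
Left, log2 fold change of the 9 tested members (JHU083 minus vehicle) with its SE; right, the tested genes of 9 lists around them, filled where the edgeR adjusted p is under 0.05, with each list's median as a bar. Ccnd1 lies at -1.41 and Cdkn2c at -0.80, and the lists of later cyclins, E2F factors and RB-E2F targets have medians of -1.16, -0.56 and -0.92.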

How the data were processed

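RNA was measured in 10 sorted macrophage samples, 5 per treatment, from polyadenylated RNA in paired-end libraries. The submitters' processing notes name bcl2fastq 2.17.1.14, FastQC 0.11.2, TopHat2 2.1.1 and build GRCm38; the counting program and annotation are not given in the sources used here. Under a header of raw counts the authors deposited values that are not whole, here called expected counts. Each sample's values are multiples of its own step (0.888 to 1.17). Divided by that step and rounded, they were used as fragment counts: 99.2% to 99.4% came out whole within 0.02. That these are the original counts was inferred, not stated. The second deposited column was taken as FPKM, from its dependence on length.

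edgeR 4.0.16 (R 4.3.3) was run on these counts with filterByExpr, TMM and the quasi-likelihood test, and p-values were adjusted over 12501 loci (Benjamini-Hochberg, threshold 0.05). Standard errors are the size of the log2 fold change over the square root of the F statistic. CPM rests on TMM-adjusted totals; a prior count of 2 was added for log2 CPM. Alternatives used DESeq2 1.42.0, limma 3.58.1 (voom, and FPKM on the log2 scale with a pseudocount of 0.1 or 1), other normalizations and filters, each library left out, and a replicate block. Positions are from GENCODE M21. Members and lists were chosen with earlier results of these data known. Besides members, up to 3 genes per direction and list were named, by size of change among called genes with an average log2 CPM of at least 1. Genes of few fragments are limited by depth.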

Additional observations from a re-analysis of the deposited data

Results flagged for a closer look

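Among 90 groups of 5 libraries (each named gene in each treatment), 7 had a library far from the other 4, where chance would give 4.5. The gap to the nearest library exceeded 0.71 of the group's range in these. In log2 CPM, Ccnd2 was 6.43 in JHU083 replicate 1, against 5.38 to 5.57 in the other JHU083 libraries. Cdk4 was 7.50 in JHU083 replicate 3, against 7.12 to 7.17. In the same library Rbl2 was 4.83, against 5.23 to 5.36, and Myc was 4.38, against 4.82 to 4.93. Cdc25c was 1.59 in JHU083 replicate 1, against 1.01 to 1.14. Wee1 was 2.60 in vehicle replicate 4, against 3.20 to 3.39. Ezh2 was 4.50 in JHU083 replicate 4, against 4.76 to 4.78. Of the 7, 3 were in JHU083 replicate 3.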

How the results depend on the processing

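Over the 22 alternatives per gene, the members other than Ccnd1 gave 176 comparisons, of which 164 kept direction and call, 9 lost the call, 1 gained it and 2 reversed. The fold change of Ccnd2 was -0.11 in the libraries with Rn18s-rs5 counts and -0.051 without JHU083 replicate 1 (-0.051 to 0.305 over the libraries left out), and the cause was not tested. Members called higher numbered 0 with library size only, with the replicate block, in the libraries listing Rn18s-rs5 at 0 and in those with counts, and 1 to 2 when a library was left out; the 2 came without JHU083 replicate 3, where Rb1 was added. Members called lower numbered 2 by FPKM with either pseudocount, where Cdk4 and Cdk6 were lost, beside 1901 and 1898 of 12501 loci. The libraries listing Rn18s-rs5 at 0 alone gave 532 loci higher and 586 lower of 12718 tested. The others gave 1274 higher and 1545 lower of 12967, and both sets have fewer samples than the main fit. Of the later cyclins and CDKs 7 and 6 fell within these sets, of the E2F and DP factors 2 and 6, and of the RB-E2F targets 13 and 14. No label says whether the replicate numbers pair the samples. Correlations of same-numbered deviations were -0.57 to 0.09, and no sample correlated best with its own number. Differences between single libraries can hide a shared effect, so these values cannot show that the samples were unpaired. The replicate block called 1612 loci higher and 1757 lower, and the Cdkn1b change was 0.32 (edgeR adjusted p = 0.0567). By fragment counts in place of FPKM the D-type cyclin shares were 63.8% and 42.6% for Ccnd1 in vehicle and JHU083, 19.3% for Ccnd2 in vehicle, and 16.9% and 19.4% for Ccnd3, since counts are not per length. The other 36 named genes gave 792 comparisons, of which 740 kept their call, 52 lost it and 0 reversed. Library size only moved the median of all loci to -0.07 and called 1564 loci higher and 3141 lower; Wee1 lost its call with the replicate block (edgeR adjusted p = 0.056).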
